A study of Mus musculus with 16 samples.

Results

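Bone marrow-derived macrophages grown with M-CSF (M-BMDMs) on untreated polystyrene dishes (noTC) were compared with those grown on tissue culture-treated dishes (TC), both without LPS. The comparison rests on 4 of the 16 RNA-seq libraries of the study, 2 of M-noTC and 2 of M-TC, which were taken by their labels. Bone marrow came from C57BL/6J mice of 8 weeks and was cultured for 7 days with the growth factor. The same dishes were used with GM-CSF (GM-BMDMs), and each combination was also challenged with LPS for 3 h, which gave 8 groups of 2 libraries. The sources call the 2 libraries of a group biological replicates without saying whether they came from separate mice, so the p-values measure the spread between these libraries.

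Surface treatment makes the polystyrene of a TC dish hydrophilic, so that cells spread and adhere, while an untreated dish is hydrophobic and holds macrophages less firmly. M-CSF signals through its receptor CSF1R to keep macrophages alive and to let them divide. A dividing cell loads the MCM helicase onto replication origins in G1, fires the origins in S phase and separates its chromosomes in mitosis. A resting tissue-type macrophage is known instead for clearing dead cells, for complement C1q and for exporting cholesterol on apolipoproteins.

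Library depth was 18053977 and 19208104 counts in M-TC and 21403313 and 31458363 counts in M-noTC, so 3 counts in a library correspond to between 0.0954 and 0.166 CPM (counts scaled to the depth of the library), a floor that covers counting error only. The macrophage genes Csf1r, Adgre1 and Cd68 were abundant in all 4 libraries. Ly6g of neutrophils and Cd3e of T cells had no count in any of them, but other marker genes of these cells were counted. The 14 neutrophil genes summed to 67.6 and 68.1 CPM in M-TC and to 54.1 and 54.5 CPM in M-noTC. The 10 T and NK cell genes summed to 2.05 and 3.44 CPM in M-TC and to 2.34 and 2.64 CPM in M-noTC. Values of single genes are CPM scaled with edgeR's TMM factors, and "rose" and "fell" are used of genes with a BH-adjusted p under 0.05 in edgeR's quasi-likelihood test over all 12514 genes tested. By that test 2014 genes (16.1%) rose and 1384 (11.1%) fell on noTC comparing with TC, or 3398 (27.2%) in all. Counts of list members that rose or fell at steady state are to be read beside these shares. With edgeR on the 4 libraries alone 2376 genes rose and 2201 fell. Most of these differences were small. Of the 1967 genes that rose and were not kept apart, as defined below, 1338 changed by less than 1.5-fold. Of the 1384 genes that fell 1068 changed by less than 1.5-fold. At the study's threshold for differentially expressed genes (DEGs), a fold change above 2 with an unadjusted p under 0.05, there were 332 DEGs higher on noTC (2.65%) and 208 lower (1.66%), of which 271 (2.17%) and 161 (1.29%) also had an adjusted p under 0.05. DESeq2 on the 4 libraries alone gave 129 lower DEGs. The number of genes that rose was 1316 without M-TC replicate 1, 1316 without M-TC replicate 2 and 1301 without M-noTC replicate 1. The number that fell was 873 and 880 without M-TC replicate 1 or 2, and 809 and 914 without M-noTC replicate 1 or 2. With 2 libraries in each group, 0.333 is the smallest two-sided p that exact permutation of a single gene's values allows.

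**Figure D1:**
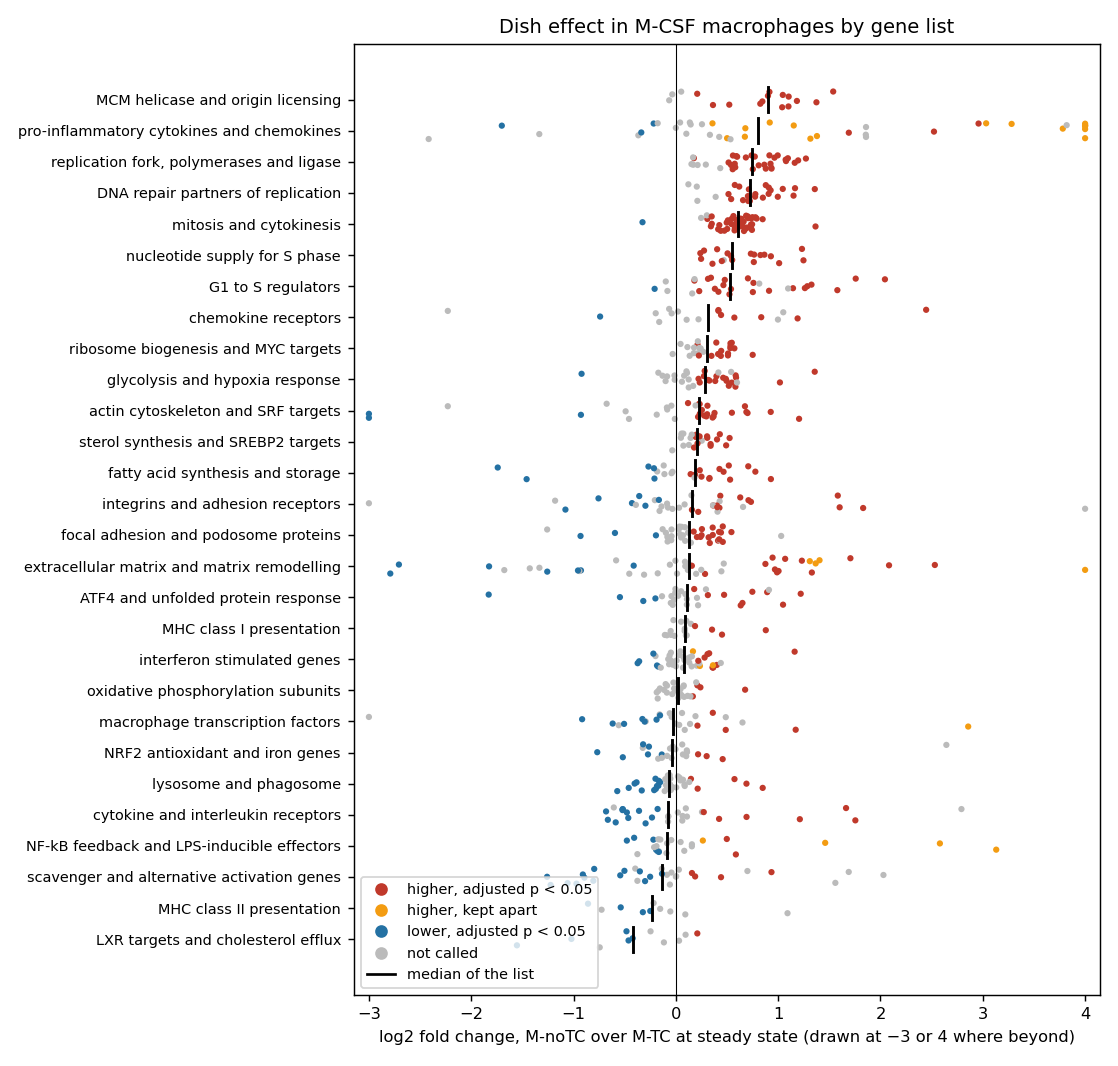
Log2 fold change of M-noTC over M-TC at steady state (x axis) for the tested members of 28 gene lists (y axis), with 1 point per gene and a black line at the median of each list. Replication and mitosis lists lie to the right of 0 with nearly all members in red. The list of LXR targets and cholesterol efflux and the MHC class II list lie to the left. Most of the higher members of the cytokine list are orange, which marks an excess under 1% of the level in the LPS libraries.

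Genes of DNA replication and cell division were higher on noTC as a group. Of 170 genes on 6 cell cycle lists, 146 rose and 2 fell, with a median log2 fold change of 0.66 against 0.01 over all genes tested. Both M-noTC libraries lay above both M-TC libraries for 160 of the 170 genes (94.1%), comparing with 35.8% of all genes tested. In bulk RNA, a larger share of dividing cells and more of these transcripts per cell cannot be told apart. The 2 that fell, named after their values were seen, were Cdkn1b (−0.21), an inhibitor of cyclin-dependent kinases, and Pttg1 (−0.33), which encodes securin. Cdkn1b did not pass without M-TC replicate 1, M-TC replicate 2 or M-noTC replicate 1 (−0.18, −0.24 and −0.14), nor Pttg1 without M-TC replicate 2 or M-noTC replicate 1 (−0.31 and −0.25).

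The genes that license origins showed the highest median of the 6 lists, 0.90, and 14 of 17 rose. Cdc6, which loads the helicase at origins, was at 6.70 and 4.86 CPM in M-TC and at 15.9 and 17.5 CPM in M-noTC (log2 fold change 1.54 ± 0.14 SE, adjusted p = 2.47e-08). Orc1, the largest subunit of the origin recognition complex, was at 2.23 and 2.51 CPM in M-TC and at 6.17 and 6.15 CPM in M-noTC (1.37 ± 0.17, adjusted p = 2.24e-06). Mcm5, a helicase subunit, was at 33.9 and 38.0 CPM in M-TC and at 78.7 and 75.7 CPM in M-noTC (1.10 ± 0.07, adjusted p = 2.93e-10). The groups did not overlap for any of these genes, as for 66.9% of all genes tested, and the other helicase subunits moved by similar amounts. Log2 fold changes were 1.18 for Mcm2, 1.05 for Mcm4, 0.91 for Mcm6, 1.10 for Mcm7 and 1.04 for the initiation factor Mcm10.

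The promoters of the licensing genes are shown because E2F factors are the known activators of this group and their motif can be read directly. Promoters are RefSeq windows of GRCm38.p6 from 250 bases before to 50 bases after the first listed transcription start, and E2F was searched as TTTNNCGC on both strands. It was found in 9 of 15 licensing promoters (60%), comparing with 8.47% of the 9905 promoters of tested genes and 5.27% of all 27025 promoters. The share was 45.5% of 22 promoters of G1 to S regulators and 10.5% of 38 mitosis promoters. The mitosis promoters instead held the CHR motif, searched as TTTGAA on both strands, in 71.1%, comparing with 12.3% of the promoters of tested genes. A match describes the letters only and is not evidence of binding. The last 150 bases before the start are printed 5′ to 3′ on the strand of the gene for 3 licensing genes and the mitotic kinase gene Cdk1. E2F matches are in capitals and, in Cdk1, CHR matches too. All genes printed hold a match in this stretch, so they are not typical of the lists. The licensing gene Mcm10 had no E2F match there, nor had Lig1, Pcna, Rrm2, Ccne1 and E2f1 of the other lists. The mitosis genes Ccnb1, Plk1 and Bub1 had no CHR match there.
Cdc6 (chr11:98908001-98908150, plus strand): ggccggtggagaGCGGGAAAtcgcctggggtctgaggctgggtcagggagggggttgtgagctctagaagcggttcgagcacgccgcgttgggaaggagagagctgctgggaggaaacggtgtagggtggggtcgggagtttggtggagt
Orc1 (chr4:108579304-108579453, plus strand): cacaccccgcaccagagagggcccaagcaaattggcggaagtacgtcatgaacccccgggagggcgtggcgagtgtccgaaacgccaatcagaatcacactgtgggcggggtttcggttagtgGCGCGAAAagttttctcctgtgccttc
Mcm5 (chr8:75109359-75109508, plus strand): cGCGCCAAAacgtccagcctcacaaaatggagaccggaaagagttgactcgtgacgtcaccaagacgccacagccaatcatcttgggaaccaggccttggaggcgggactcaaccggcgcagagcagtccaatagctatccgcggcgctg
Cdk1 (chr10:69352913-69353062, minus strand): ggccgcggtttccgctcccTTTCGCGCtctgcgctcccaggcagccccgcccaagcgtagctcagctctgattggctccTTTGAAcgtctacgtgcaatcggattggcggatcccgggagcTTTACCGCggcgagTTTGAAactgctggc

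At the replication fork, 28 of 34 genes rose and none fell, with a median of 0.75. Pole, the catalytic subunit of the leading-strand polymerase, was at 20.2 and 20.0 CPM in M-TC and at 51.7 and 45.5 CPM in M-noTC (1.27 ± 0.09, adjusted p = 1.21e-09). Lig1, the ligase that joins Okazaki fragments, was at 31.1 and 32.2 CPM in M-TC and at 67.9 and 67.6 CPM in M-noTC (1.09 ± 0.08, adjusted p = 1.06e-09). Pcna, the sliding clamp, rose by 0.93, and the histone chaperone gene Chaf1b rose by 1.20. Of 19 genes that supply nucleotides for S phase 18 rose, among them Rrm2 of ribonucleotide reductase (1.01) and Ctps (1.25). Of 25 repair partners of replication 21 rose and none fell, with Brca1 at 0.91 and Chek1 at 1.15.

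Among the regulators that take a cell from G1 into S phase, 21 of 28 rose and 1 fell. Ccnd1, the D-type cyclin that growth factors induce, was at 51.1 and 51.1 CPM in M-TC and at 217 and 205 CPM in M-noTC (2.04 ± 0.08, adjusted p = 1.80e-13). Ccnd2, another D-type cyclin, rose by 1.58, and the E-type cyclins Ccne1 and Ccne2 rose by 1.26 and 1.28. Myc, which encodes a growth-promoting transcription factor, was at 3.59 and 5.42 CPM in M-TC and at 14.4 and 16.1 CPM in M-noTC (1.76 ± 0.13, adjusted p = 1.56e-09). The inhibitor gene Cdkn1a, known for arresting the cycle, rose as well, by 0.75 ± 0.06, and E2f1 rose by 0.76 ± 0.08. The list therefore held activators and an inhibitor that were higher on noTC.

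Of 47 genes of mitosis and cytokinesis 44 rose and 1 fell, and their median of 0.61 was below that of the licensing genes. Mybl2, a regulator of late cell cycle genes, had the largest change of the list, from 5.03 and 5.95 CPM in M-TC to 14.3 and 14.1 CPM in M-noTC (1.37 ± 0.13, adjusted p = 9.84e-08). Ccna2 rose by 0.79, Plk1 by 0.74, Cdk1 by 0.67, Bub1 by 0.65, and Ccnb1 and Aurkb by 0.50 each. Genes of ribosome biogenesis moved the same way, with 15 of 26 up and none down, among them Odc1 (0.75), Nop58 (0.57) and Nop56 (0.53).

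**Figure D2:**
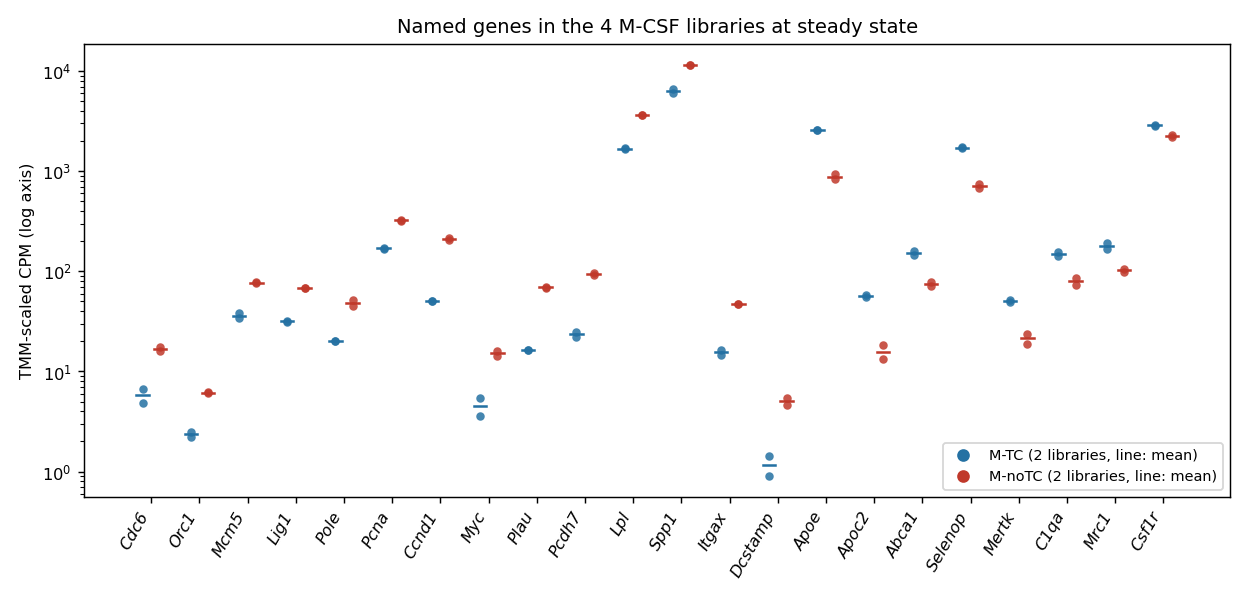
TMM-scaled CPM (y axis, log scale) of 22 named genes (x axis) in the 2 M-TC libraries (blue) and the 2 M-noTC libraries (red), with a line at the mean of each pair. The replication genes, Ccnd1, Myc, Plau, Pcdh7, Lpl, Spp1, Itgax and Dcstamp are higher on noTC and the 8 genes from Apoe to Csf1r are lower. The pairs do not overlap for any gene drawn, as for 66.9% of all genes tested.

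Among genes that macrophages are known to express, several of lipid export and dead cell clearance fell. Apoe, the apolipoprotein that accepts cholesterol from macrophages, was at 2583 and 2579 CPM in M-TC and at 827 and 932 CPM in M-noTC (−1.55 ± 0.06, adjusted p = 1.80e-13). Apoc2 of the same gene cluster was at 58.5 and 55.9 CPM in M-TC and at 13.2 and 18.4 CPM in M-noTC (−1.84 ± 0.12, adjusted p = 2.31e-10). The liver X receptors (LXR) sense oxysterols. On a list of LXR targets and cholesterol efflux, which also holds the receptor genes Nr1h2 and Nr1h3, 11 genes were tested. Of these 5 fell and 1 rose, with a median of −0.42. The cholesterol exporters Abca1 and Abcg1 fell by 1.02 and by 0.48 on the log2 scale, Mylip fell by 0.46 and Smpdl3a by 0.42, while Lpcat3 rose by 0.21. Lpcat3 did not pass when any 1 of the 4 libraries was left out (0.18 without M-TC replicate 1, 0.23 without M-TC replicate 2, 0.20 and 0.21 without M-noTC replicate 1 or 2). Selenop, which encodes a secreted selenium carrier, was at 1689 and 1732 CPM in M-TC and at 681 and 752 CPM in M-noTC (−1.26 ± 0.05, adjusted p = 1.22e-13).

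Some receptors that macrophages use to take up dead cells and ligands fell as well. Of 31 scavenger and alternative activation genes 14 fell, 4 rose and 13 did not pass, with a median of −0.14. Mertk, a receptor tyrosine kinase for apoptotic cells, was at 51.2 and 49.9 CPM in M-TC and at 19.0 and 23.9 CPM in M-noTC (−1.22 ± 0.08, adjusted p = 2.20e-10). Mrc1, the mannose receptor, was at 168 and 191 CPM in M-TC and at 99.3 and 106 CPM in M-noTC (−0.81 ± 0.08), and Stab1, a scavenger receptor, fell by 0.80. The lectin genes Clec4n and Clec10a fell by 1.06 and 0.97, whereas Msr1, the class A scavenger receptor, rose by 0.44. The complement genes C1qa, C1qb and C1qc fell by 0.91, by 0.50 and by 0.54. Of the 12 genes used as macrophage markers 7 fell and 2 rose, so the level of these markers was itself lower on noTC. Csf1r, the receptor for the growth factor in the medium, fell from 2894 and 2823 CPM to 2181 and 2273 CPM (−0.36 ± 0.05, adjusted p = 1.24e-05), and Lyz2 of lysozyme fell by 0.33, while Cd68 did not pass the test (0.08 ± 0.06, adjusted p = 0.290). Among transcription factors of macrophages 7 of 26 fell and 5 rose (19.2%), against 11.1% and 16.1% of all genes tested. Of the 5 that rose Nr4a3 was kept apart, as defined below, and 4 were not. Maf was at −0.62, Irf8 at −0.30 and Egr2 at 1.17, and Spi1 did not pass (0.06 ± 0.06). Of 40 lysosome genes 12 fell and 5 rose (12.5%), with Ctsh at −0.57 and Ctsl at 0.57, and Ctsd did not pass (−0.05 ± 0.04).

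Genes that tie cells to a surface were measured because the dishes differ in adhesion. Of 36 integrins and adhesion receptors 13 rose and 6 fell, and of 40 focal adhesion proteins 16 rose and 3 fell. Of 32 actin and SRF target genes 19 rose and 3 fell. Of all genes tested 16.1% rose and 11.1% fell. The medians of the lists were 0.15, 0.13 and 0.23. The actin list holds Ankrd1, a lower DEG that is also on the heart list described below. Itgax, the integrin chain CD11c, rose from 16.3 and 14.7 CPM in M-TC to 47.0 and 47.1 CPM in M-noTC (1.6 ± 0.08, adjusted p = 1.44e-12). Cd44, a hyaluronan receptor, rose by 0.73, Itgb2 by 0.43 and Itgam by 0.36. Itgav and Itgb3, the chains of the vitronectin receptor, did not pass, at 0.03 ± 0.06 and −0.08 ± 0.09. In the cytoskeleton Actg1 rose by 0.55, Actb by 0.36, Vcl of vinculin by 0.41 and Zyx of zyxin by 0.36, whereas Tns1 of tensin fell by 0.93 and Pxn of paxillin did not pass (−0.10 ± 0.06). Plau, the urokinase that starts plasmin activation on cells, was at 16.3 and 16.2 CPM in M-TC and at 69.5 and 68.3 CPM in M-noTC (2.08 ± 0.07, adjusted p = 1.43e-14). Of 43 matrix genes 17 rose, 4 of them kept apart below, and 7 fell. Spp1 of osteopontin rose by 0.88 and Mmp9 by 1.33, and Fn1 of fibronectin rose by 2.53 from 1.79 and 1.53 CPM to 10.3 and 9.10 CPM. Thbs1 of thrombospondin and Mmp14 fell by 0.93 and by 1.26.

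Metabolic genes were compared on 5 lists. Outside these, Lpl, the lipase that frees fatty acids from lipoproteins, was at 1707 and 1658 CPM in M-TC and at 3639 and 3658 CPM in M-noTC (1.12 ± 0.04, adjusted p = 8.42e-14). Of 23 sterol synthesis genes 13 rose and none fell, with Sqle at 0.49. Of 24 fatty acid genes 13 rose and 5 fell, with the desaturases Fads2, Scd1 and Scd2 at 0.93, 0.78 and 0.71. Of 35 glycolysis and hypoxia genes 18 rose and 1 fell. The lactate transporter gene Slc16a3 rose by 1.02, the glucose transporter gene Slc2a1 by 0.58 and Gapdh by 0.50, and the hypoxia-responsive Vegfa did not pass (−0.01 ± 0.09). Of 28 subunits of oxidative phosphorylation 4 rose and none fell, with a median of 0.02 and a share that was no larger than the 16.1% of all genes tested, and Cycs of cytochrome c rose by 0.68. Among 29 ATF4 and unfolded protein response genes 9 rose and 4 fell, and those that moved most upward belong to amino acid supply, with Psat1 of serine synthesis at 1.22, the transporter gene Slc7a5 at 1.05 and Asns at 0.89, while the chaperone gene Hspa5 did not pass (−0.02 ± 0.05).

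Receptor and antigen presentation genes moved in both directions. Of 18 chemokine receptors 7 rose and 1 fell. Ccr1 rose by 1.19, Cx3cr1 by 0.57 and Ccr2 by 0.42, and Cxcr4 fell by 0.74. Ccr2 did not pass without M-TC replicate 2 (0.39) or M-noTC replicate 2 (0.32). Of 29 cytokine receptors 6 rose (20.7%, against 16.1% of all genes tested) and 12 fell, with Il7r at 0.69, Il18rap at 1.21 and Il21r at −0.68. Among 10 genes of MHC class II presentation 4 fell and none rose. Ciita, the master regulator of this group, was at 11 and 12.5 CPM in M-TC and at 6.20 and 6.71 CPM in M-noTC (−0.86 ± 0.11, adjusted p = 5.22e-06), and H2-Ab1, Cd74 and H2-Aa fell by 0.54, by 0.32 and by 0.25. H2-Aa did not pass without M-TC replicate 2 or M-noTC replicate 1 (−0.19 and −0.18). Of 17 genes of MHC class I presentation, a family whose members can share reads, 4 rose and none fell, and H2-K1, H2-D1 and B2m did not pass. Of 23 antioxidant and iron genes 6 fell and 3 rose, with the iron exporter gene Slc40a1 at −0.77 and Hmox1 at 0.30.

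The largest changes of single genes were partly outside the lists. Pcdh7, a protocadherin, was at 25.0 and 22.3 CPM in M-TC and at 96.9 and 91.7 CPM in M-noTC (1.99 ± 0.09, adjusted p = 7.88e-13). Efr3b rose from 8.26 and 7.11 CPM to 44.4 and 41.7 CPM (2.49 ± 0.14), the atypical cadherin gene Fat3 rose by 2.51, the dehydrogenase gene Dhrs9 by 1.8 and the carboxypeptidase gene Cpe by 1.85. Dcstamp, a membrane protein needed for fusion of osteoclasts and giant cells, was at 1.44 and 0.898 CPM in M-TC and at 5.39 and 4.64 CPM in M-noTC (2.10 ± 0.18, adjusted p = 1.28e-08). It was 1 of 4 of 11 osteoclast and fusion genes that rose, with Ctsk (0.85), Atp6v0d2 (0.69) and Tnfrsf11a (0.42), and Acp5 did not pass (−0.02 ± 0.11). Downward, the adaptor gene Gab1 fell by 1.32, the kinase gene Nuak1 by 1.51, Sorbs3 of vinexin by 1.55, Slc26a11 by 1.29 and Cp of ceruloplasmin by 1.28. Of the genes with the largest fold, 2 pairs are uncertain because their loci overlap on 1 strand in GENCODE M21 and reads can be split between them. Gm45837 had no count in M-TC and 6.30 and 5.32 CPM in M-noTC, while Pde2a at the same locus fell from 15.9 and 16.1 CPM to 6.20 and 6.34 CPM. Gm28048, which overlaps Commd1 and B3gnt2, was at 18.2 and 20.1 CPM in M-TC and at 0 and 3.46 CPM in M-noTC, and it did not pass without M-noTC replicate 1 (−2.48) or in DESeq2.

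Of 40 cytokine and chemokine genes 20 rose on noTC at steady state, 17 of them by less than 1% of their level in the LPS libraries. Genes were kept apart where the mean library-size CPM of M-noTC exceeded that of M-TC by less than 1% of the mean over the 8 LPS libraries. Of the 332 DEGs higher on noTC 38 were kept apart, which left 294 (2.35%). The 38 became 18 with a limit of 0.5%, 15 with the 4 M LPS libraries in place of the 8, and 6 after the subtraction described below. Of the genes that rose by adjusted p 47 (0.376%) were kept apart and 1967 (15.7%) were not. The limit chose the 38, so that their excess of 0.333% to 0.934% of the LPS mean is a description of the choice. Against the mean of the 4 M LPS libraries alone the excess was 0.506% for Ptgs2 and 0.661% for Il6 but 1.23% for Il1b, 3.27% for Slc7a2 and 4.31% for Il1a. Il1b was at 0.758 and 1.12 CPM in M-TC and at 14.3 and 12.1 CPM in M-noTC, an excess of 0.529% of the LPS mean of 3191 CPM, and it rose by 3.78 in the fit. Il6 was at 0.0399 and 0 CPM in M-TC and at 6.33 and 5.04 CPM in M-noTC, an excess of 0.568%. Il12b had no count in M-TC and was at least 43.0-fold higher on noTC, against a floor of 3 counts per library, with an excess of 0.459%. Others kept apart were Il1a (0.525%), Cxcl1 (0.442%), Cxcl2 (0.629%), Ptgs2 (0.678%), Nos2 (0.520%) and Slc7a2 (0.538%). Low transcription of these genes in M-noTC and a low share of reads from the LPS libraries cannot be told apart from these files.

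**Figure D3:**
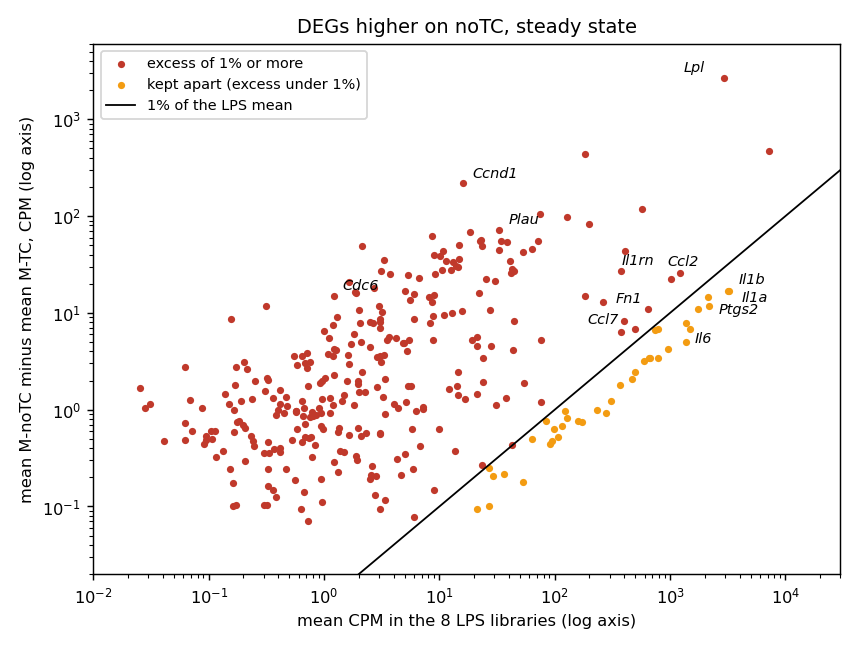
Excess of M-noTC over M-TC in CPM (y axis, log scale) against the mean CPM in the 8 LPS libraries (x axis, log scale) for the 332 DEGs higher on noTC, with the line at 1%. The 38 orange genes lie below the line because the line chose them, and Ccnd1, Plau, Cdc6 and Lpl lie far above it.

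The excess ran on without a gap across the limit of 1%. Just inside it were Cxcl11 at 0.934%, Flrt3 at 0.916% and Vcan at 0.899%, and just outside were Tarm1 at 1.01%, Ccr7 at 1.15% and Lta at 1.29%. Ccl7, Fn1, Il1rn and Ccl2 were outside it at 1.38%, 1.71%, 2.16% and 2.24%. Ccl2, the monocyte attractant, was at 3.19 and 3.67 CPM in M-TC and at 21.5 and 18.3 CPM in M-noTC (2.52 ± 0.14, adjusted p = 1.64e-11), and Il1rn of the IL-1 receptor antagonist rose by 1.69 from 7.54 and 9.35 CPM to 28.6 and 26.2 CPM. When 0.481% of the LPS mean, the median excess over 21 genes that were under 1 CPM in M-TC and at 100 CPM or more in the LPS libraries, was subtracted from both M-noTC libraries, 6 cytokine genes passed the test as higher on noTC. The share is taken from the same libraries, so that genes with a larger excess keep part of it by construction. The 6 were Ccl2, Ccl7 and Il1rn, and of those kept apart Il6, Cxcl2 and Tnf, the last named after its values were seen. Il1b no longer passed after the subtraction (0.96). Of 25 NF-κB feedback and LPS-inducible genes 6 rose, 4 of them kept apart, and 6 fell, among them Nfkbiz (−0.48) and Nfkbia (−0.18). Of 42 interferon stimulated genes 12 rose, 3 of them kept apart, and 5 fell, with Oasl1 at 1.16, Irf7 at 0.40 and Ifit3b at −0.37. Nfkbia did not pass when any 1 of the 4 libraries was left out (−0.17, −0.19, −0.19 and −0.18), nor Ifit3b without M-noTC replicate 2 (−0.30). Il10, the anti-inflammatory cytokine, was named after its values were seen and fell by 1.70 from 2.99 and 2.32 CPM to 0.775 and 0.836 CPM.

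Transcripts of heart muscle were higher in M-TC than in M-noTC. Of 36 tested genes of the heart and striated muscle list 31 fell and none rose, with a median fitted log2 fold change of −5.76. The median was −3.61 with 21 genes set to the bound that 3 counts per library allow. These 21 had at most 3 counts in each M-noTC library. The summed level of the whole list of 45 genes, some of which other cells also express, was 173 and 104 CPM in M-TC, 22.4 and 20.8 CPM in M-noTC and 38.1 to 49.0 CPM in the M LPS libraries. The summed level of the 8 lead genes of the list was 83.5 and 47.1 CPM in M-TC and 0.234 and 0.286 CPM in M-noTC. It was also 49.6 and 23.4 CPM in the GM-TC libraries and between 0.374 and 1.17 CPM in the 10 remaining libraries. Myh6, a cardiac myosin heavy chain, was at 22 and 12 CPM in M-TC and had no count in M-noTC, which made it at least 199-fold lower on noTC. Actc1, Mb and Myl2 were at least 101-fold, 82.9-fold and 69.7-fold lower, with no count in M-noTC. Of the 208 lower DEGs 32 were on the heart list, and 176 were not. The summed level of 12 fibroblast genes was 10.6 and 4.79 CPM in M-TC and 2.76 and 3.53 CPM in M-noTC, and 3 of 10 tested genes fell. It did not follow the heart genes over the other libraries, with 30.3 and 33.2 CPM in M-TC-LPS, 20.1 and 22.5 CPM in M-noTC-LPS and 63.2 and 53.8 CPM in GM-TC-LPS. Dcn, of a matrix proteoglycan, had no count in M-noTC and was at least 15.6-fold lower. Cxcl12 fell by 2.21 and Bgn by 1.77, but neither call held in every fit, with −2.24 for Cxcl12 without M-noTC replicate 2 and −0.62, −2.25 and −1.32 for Bgn without M-TC replicate 1 or M-noTC replicate 1 or 2. Hspg2 and Sparc of the matrix list, which heart and stroma also express, fell by 2.79 and by 2.71, and Hspg2 did not pass without M-TC replicate 1 (−2.11) or M-noTC replicate 1 (−2.36), nor Sparc without M-TC replicate 1 (−2.17) or M-noTC replicate 2 (−2.43). Whether the matrix and stroma transcripts came with the heart transcripts was not tested. Of the other marker lists 2 of 8 monocyte genes rose, of which Vcan was kept apart, and 2 fell. Among 9 neutrophil genes 1 fell, among 8 dendritic cell genes 1 rose, and among 6 endothelial genes 1 fell. Of all genes tested 16.1% rose and 11.1% fell. The dendritic cell gene was Ccr7, with 2 counts in M-TC and 17 in M-noTC. It did not pass after the subtraction or in DESeq2 on all 16 libraries. No mast cell, B cell, T cell or erythroid gene passed.

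**Figure D4:**
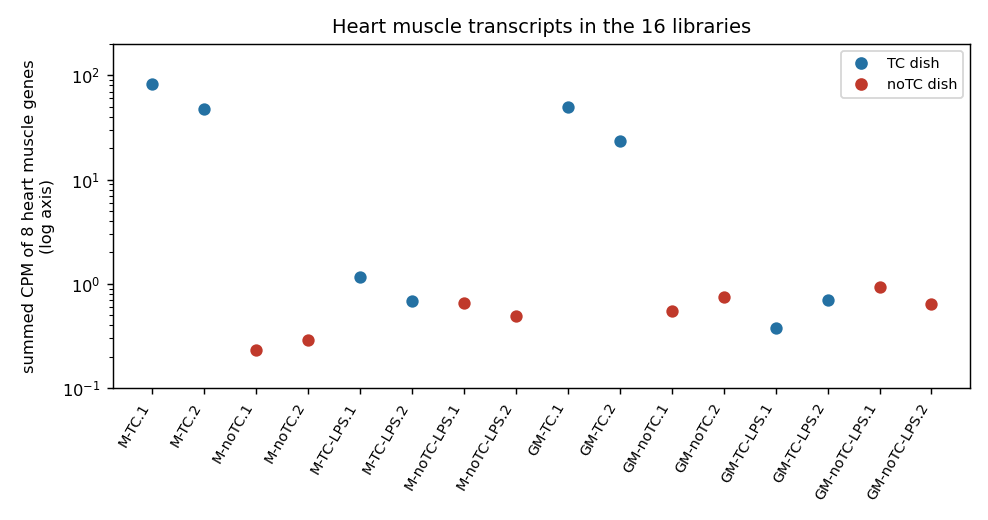
Summed CPM of 8 heart muscle genes (y axis, log scale) in each of the 16 libraries (x axis), blue for TC and red for noTC dishes. The 2 M-TC and 2 GM-TC libraries at steady state lie between 23.4 and 83.5 CPM and the other 12 between 0.234 and 1.17 CPM.

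The dish effect of M-BMDMs at steady state was set beside that upon LPS challenge, in 4 other libraries. After LPS 1298 genes (10.4%) were higher and 1619 (12.9%) lower on noTC, and with library size alone as the scaling 2101 were higher and 880 lower. The 2014 genes that rose at steady state and the 1298 that rose upon LPS challenge had 775 in common, and 146 of the 2014 fell upon LPS challenge. The 1384 and 1619 genes that fell had 525 in common, and 35 of the 1384 rose. The effect itself differed with LPS for 1325 genes (10.6%), and it was higher after LPS for 389 (3.11%) and lower for 936 (7.48%). That split depended on the scaling, with 764 higher and 486 lower by library size alone, which moved the median of all genes after LPS to 0.08. The count of 1325 became 757, 782, 718 and 820 without M-TC replicate 1 or 2 or M-noTC replicate 1 or 2, and 876 without M-noTC-LPS replicate 1. The counts of genes higher and lower after LPS became 770 and 927 without M-noTC-LPS replicate 1, and 831 genes were higher without M-TC-LPS replicate 1. Among the 170 cell cycle genes 115 rose and 5 fell upon LPS challenge, with a median of 0.47, and the interaction was lower after LPS for 35 and higher for 2, or for 19 and 6 by library size alone. The mitosis list kept a median of 0.50 with 42 of 47 up, while the G1 to S list went to 0.25 with 13 up and 3 down. Myc was the clearest exception, at 18.7 and 18 CPM in M-TC-LPS and at 8.21 and 9.28 CPM in M-noTC-LPS (−1.07 with LPS against 1.76 at steady state, interaction adjusted p = 1.20e-09). Apoe was lower by 1.64 with LPS and by 1.55 without, and no difference between them was shown (interaction adjusted p = 0.619). Of the cytokine genes 20 were up at steady state, 17 of them kept apart and 3 not, and 3 were down. With LPS 8 were up and 14 down, or 8 up and 9 down by library size alone. Il1b, which was kept apart, was at 2007 and 2197 CPM in M-TC-LPS and at 1274 and 1378 CPM in M-noTC-LPS. Actin and SRF target genes also went from 19 up and 3 down to 7 up and 10 down, with Actb at −0.26 after LPS, but to 8 up and 6 down by library size alone.

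GM-BMDMs on the same dishes served to ask which of these effects differed with the growth factor. At steady state 587 genes (4.69%) were higher and 357 (2.85%) lower on noTC in GM-BMDMs. The dish effect differed between the growth factors for 1404 genes (11.2%), and it was higher in M for 801 (6.4%) and lower in M for 603 (4.82%). The count of 1404 became 897 and 891 without M-TC replicate 1 or 2 and 850 without M-noTC replicate 1. Among the 170 cell cycle genes 27 rose and 2 fell in GM, with a median of 0.14, and the effect was higher in M for 95 of them and lower for none. Plau had a log2 fold change of 2.08 in M and 0.05 ± 0.06 in GM (interaction adjusted p = 1.34e-12), and Itgax one of 1.6 in M and 0.04 in GM (3.79e-10). Apoe fell by 1.55 in M and was at −0.15 in GM (interaction adjusted p = 8.48e-10), Selenop by 1.26 against −0.19 (9.53e-10) and Mertk by 1.22 against −0.12 (3.97e-07). MHC class II genes went opposite ways, with 4 of 10 lower in M and 6 of 10 higher in GM, and the interaction was lower in M for 5. Ciita was at −0.86 in M and 0.94 in GM (interaction adjusted p = 2.14e-08). Of the 36 heart genes 30 fell in GM and 31 in M.

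**Figure D5:**
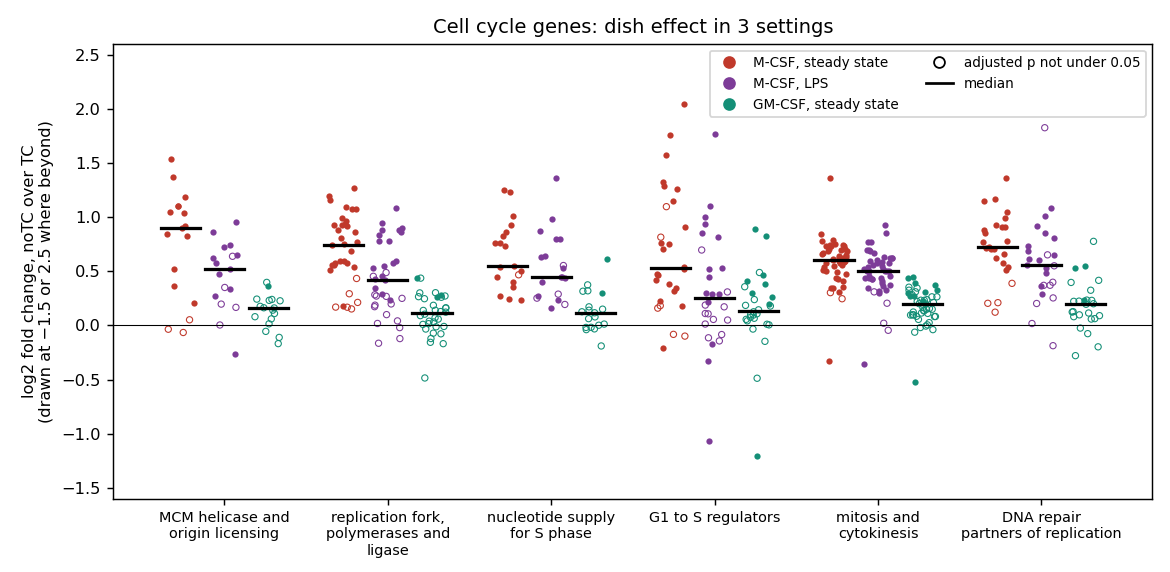
Log2 fold change of noTC over TC (y axis) for the genes of 6 cell cycle lists (x axis) in M-BMDMs at steady state (red), in M-BMDMs with LPS (purple) and in GM-BMDMs at steady state (green), with filled points for an adjusted p under 0.05 and a line at the median. Each list has its highest median in M-BMDMs at steady state and its lowest in GM-BMDMs.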

How the data were processed

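RNA was measured in 16 libraries of mouse bone marrow-derived macrophages, of which the 4 M-BMDM libraries at steady state are the main comparison. The authors enriched mRNA with oligo(dT) beads, aligned reads with HISAT2 and deposited RSEM expected counts of 22287 genes. The submitters' processing notes also name fastp 0.18.0, Bowtie2 2.2.8 and StringTie 1.3.1. The genome build and annotation were not given in the sources used here. Expected counts were rounded to whole numbers. Genes were filtered by filterByExpr on group (12514 of 16756 genes with a count), TMM-scaled and fitted over all 16 libraries with edgeR 4.0.16 in R 4.3.3, so that all groups share an estimate of the spread (biological coefficient of variation 4.75%). Contrasts were tested with the quasi-likelihood test and adjusted by Benjamini-Hochberg (BH). SE is the absolute log2 fold change over the square root of F. Depth was 17527802 to 31458363 counts, so 3 counts correspond to 0.0954 to 0.171 CPM. Fold bounds of genes with at most 3 counts in each library of a group use 3 counts per library.

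Samples were grouped by their titles. The genes kept apart, the subtraction, DESeq2 1.42.0, other scalings and filters, smaller sets of libraries, a replicate block and leaving out each library were the alternatives tried. The 4 libraries and the 45 gene lists were chosen with earlier results of these data known. Named genes were the lead genes of each list with up to 4 further called members of largest fold, the 12 DEGs per direction with the largest fold among those past the adjusted p, at 5 CPM or more in the higher group, without overlap between the groups, not kept apart and on no tissue list, the 8 called genes per direction with the largest difference in CPM, the 8 kept-apart DEGs of largest excess, those next to the 1% limit, genes the study names and the 5 smallest p of each interaction. In simulated counts of the main comparison over 12424 genes edgeR called 97 of 100 genes changed 3-fold and 88 of 100 changed 1.5-fold. It also called 6 of the unchanged genes. Whether these values hold for the real libraries, or for genes of few counts, was not tested. Promoters came from RefSeq (GRCm38.p6) and overlaps of loci from GENCODE M21. Some genes of the lists are not reported here by name.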

Additional observations from a re-analysis of the deposited data

Results flagged for a closer look

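The dish effect differed between M and GM for 1404 genes and between LPS and steady state in M for 1325 genes, by the interaction test of edgeR with a BH-adjusted p under 0.05. Values below are interaction log2 fold changes of genes that either had the smallest p or moved in opposite directions, and no explanation was tested. A negative value is a dish effect lower in M than in GM, or lower with LPS than without.

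Between the growth factors, the interferon-induced genes Cxcl10, Ifit1, Rsad2 and Cmpk2 differed by −5.01, −2.17, −2.01 and −1.96. Their dish effects were 0.68, −0.07, 0.17 and 0.15 in M against 5.69, 2.10, 2.18 and 2.12 in GM. Cxcl10, Rsad2 and Cmpk2 were kept apart in M, and the 1% limit was not applied to GM. Levels in GM-noTC were 28.1, 21.7, 53.7 and 23.5 CPM in the order first listed. In GM-TC they were 0.519, 5.06, 11.9 and 5.36 CPM, and the LPS means were 5789, 3258, 8842 and 3765 CPM. The share estimated for GM as for M was 0.553% of the LPS mean. Whether reads of the LPS libraries raised these genes in GM-noTC was not tested. Ifit3b differed by −2.64. Plau differed by 2.03, Asns by 1.31 and Atp6v0d2 by 0.90, all higher in M. The antigen presentation genes Ciita, H2-Ab1, H2-Aa and Cd74 differed by −1.80, −1.12, −0.71 and −0.57. Thbs1, Clec10a, Nfkbiz and Il21r differed by −1.58, −1.56, −1.30 and −0.99.

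With LPS against without, the cytokine genes Il1a, Il1b, Il1rn and Tnf differed by −5.02, −4.45, −1.74 and −1.13, and of these Il1a, Il1b and Tnf were kept apart at steady state. Il12b differed by −10.58, a fitted value that depends on the prior count because it had no count in M-TC. Mmp13, a collagenase gene that was also kept apart, differed by −2.19. Myc differed by −2.83, Cdkn1a by −0.92 and Cdkn1b by 0.42. The cytoskeletal genes Vcl, Actg1, Zyx and Actb differed by −0.79, −0.72, −0.64 and −0.62. Hmox1, Slc2a1, Msr1 and Tnfrsf11a differed by −0.91, −0.90, −0.74 and −0.58. Irf8 and Ifit3b differed by 0.66 and 0.73.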

How the results depend on the processing

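The 2014 genes that rose and 1384 that fell became between 1301 and 1361 and between 809 and 914 when 1 of the 4 libraries was left out, fits in which the lone sample is assumed to vary like the other groups. edgeR on the 4 steady state M libraries called 2201 genes lower, and DESeq2 on the same libraries gave 129 lower DEGs. The 38 DEGs kept apart became 18 with a limit of 0.5%, 15 with the mean of the 4 M LPS libraries in place of the 8, and 6 after the share was subtracted. With library size alone, 2101 genes were higher and 880 lower on noTC after LPS. Leaving out 1 library gave 850 to 975 genes for the interaction with growth factor, 718 to 1141 for that with LPS, 770 to 1011 genes higher and 927 to 1185 lower after LPS. For these counts the cause of a change was not tested, except that leaving out a library takes samples away. No listed fold change of the 139 genes checked reversed its sign with a call. Ctsd and Pxn passed in edgeR on the 4 libraries, Ctsd also in DESeq2 on these, and Nfkbia and Bgn did not pass on the 8 steady state libraries.

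The replicate numbers are shared by all groups, and whether they pair the samples is not stated. Deviations of equal numbers in M-TC and M-noTC correlated at 0.02 at steady state and 0.06 with LPS. A correlation over all genes between so few libraries cannot decide whether equal numbers share a source. With the replicate number as a block 1992 genes rose and 1374 fell, with 327 and 206 DEGs, and none of the 139 fold changes lost or gained a call. At this depth a gene with no count may lie up to 0.166 CPM in M-TC, and changes of 1.5-fold in genes of few counts may be missed.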
